A study of Mus musculus with 8 samples.

Results

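The leukemia inhibitory factor gene Lif, the oncostatin M gene Osm, and 3 genes of receptor chains that read cytokines of this family, Lifr, Il6st and Il6ra, were taken by symbol from the 54532 genes of the deposited table. All 5 were found. Bulk mRNA of spleen CD4+ T cells of WT mice was sequenced, in 4 libraries of cells given dimethyl succinate for 3 days and 4 libraries of cells given vehicle. Dimethyl succinate is an esterified form of succinate that enters cells, and the deposited headers call the vehicle DMSO. Both groups share the WT genotype and the spleen source. The age and number of the mice, any pooling, and the stimulus under which the cells were cultured are not stated in the labels. The 5 genes were selected on values of this same contrast, with earlier results of dimethyl succinate against vehicle, with and without vehicle replicate 4, in view. Every difference between the groups is therefore given as a description of these libraries, without a test, and supports nothing by itself.

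Cytokines of the interleukin-6 family signal through a shared receptor chain, gp130, which Il6st encodes. Each ligand needs a partner chain: LIF binds the LIF receptor encoded by Lifr, interleukin-6 binds the receptor encoded by Il6ra, and mouse oncostatin M binds mainly the chain encoded by Osmr. The assembled receptors activate Janus kinases and chiefly the transcription factor STAT3. In CD4+ T cells interleukin-6 is known for steering cells towards the T helper 17 fate, while activated T cells are known as makers of LIF and oncostatin M.

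Markers of T cells were abundant. The 7 genes listed were Cd4, Cd3d, Cd3e, Cd3g, Trac, Cd5 and Cd28. Their summed level was 2337 to 2412 CPM (counts scaled to library size) in the dimethyl succinate libraries. In the vehicle libraries it was 1840 to 2377 CPM, the low value being that of vehicle replicate 4. Without that library the vehicle libraries ran from 2329 to 2377 CPM. Cd4 itself averaged 471 CPM under dimethyl succinate and 415 CPM under vehicle. Total counts ran from 13407295 to 16688854 per library. Vehicle replicate 4 stood apart, with a mean correlation of 0.981 with the other libraries, against 0.989 to 0.991 for each of the others, and with 0.252% of its counts from mitochondrially encoded genes, against 1.16% to 1.48%. Its summed level of 4 platelet markers was also the highest, at 49.6 CPM, against 22.1 to 28.6 CPM in the dimethyl succinate libraries and 25.6 to 29.1 CPM in the other vehicle libraries. Averaged by group, most of the platelet sum was Itga2b, at 21.2 CPM under dimethyl succinate and 26.4 CPM under vehicle. Pf4 averaged 3.74 CPM under dimethyl succinate and 6.16 CPM under vehicle, and Ppbp and Gp9 under 1 CPM in both groups. Vehicle replicate 4 is kept unless a value is given without it.

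Ranked by FPKM, fragments scaled to gene length and to library size, which allows levels to be set side by side between genes, Lif stood far above the others. Its level averaged 53.4 ± 0.619 FPKM under dimethyl succinate and 62.1 ± 1.58 FPKM under vehicle (SD, n = 4 each). Over all 8 libraries its mean level exceeded that of 94.0% of the 13981 genes tested. Osm, Il6st and Il6ra followed at mean levels of 10.4, 9.37 and 8.26 FPKM over all 8 libraries, and Lifr came last at 0.0083 FPKM. Lif was the highest and Lifr the lowest of the 5 in 8 of 8 libraries.

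The 3 genes between them were close neighbours. The FPKM of Osm exceeded that of Il6st in 7 of 8 libraries, the exception being vehicle replicate 1. The FPKM of Il6st exceeded that of Il6ra in 7 of 8 libraries as well, the exception being vehicle replicate 4. Ranges over all libraries overlapped: Osm ran from 8.36 to 11.6 FPKM, Il6st from 7.15 to 10.3 FPKM and Il6ra from 7.61 to 9.03 FPKM. Under dimethyl succinate alone Il6st, at 9.59 to 10.3 FPKM, lay above Il6ra, at 8.02 to 8.40 FPKM, without overlap. Under vehicle the ranges of Il6st and Il6ra overlapped, and those of Osm and Il6st overlapped in both groups. The order depends on the length scale, since on CPM Il6st lay above Osm in every library.

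**Figure D1:**
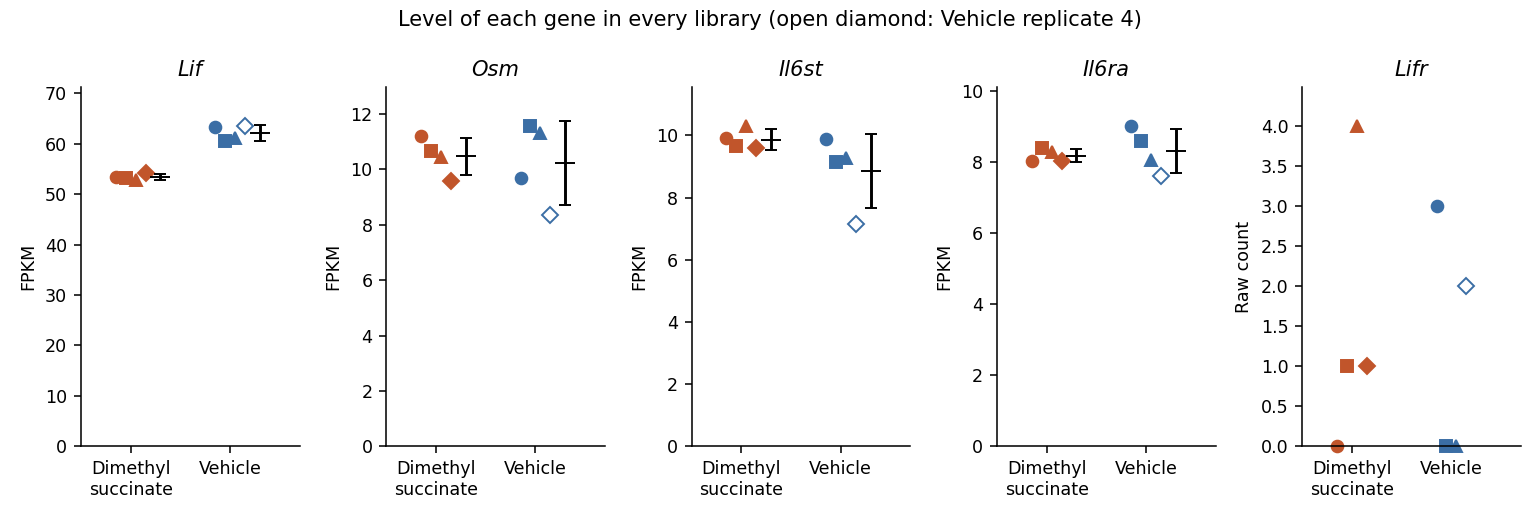
Each point is one library, with FPKM on the vertical axis for Lif, Osm, Il6st and Il6ra and the raw count for Lifr. Black marks give the mean and SD of 4 libraries. The dimethyl succinate libraries of Lif sit between 52.8 and 54.2 FPKM, all below the vehicle libraries, while for the other genes the groups overlap.

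Lif encodes a secreted cytokine that acts on cells carrying the LIF receptor. It had 53.4, 53.2, 52.8 and 54.2 FPKM in dimethyl succinate replicates 1 to 4, against 63.4, 60.4, 61.1 and 63.6 FPKM in vehicle replicates 1 to 4. Every dimethyl succinate library lay below every vehicle library. The gene was counted deeply, with 3432 to 3896 reads per dimethyl succinate library and 3568 to 4157 per vehicle library. The coefficient of variation of its CPM was 1.26% under dimethyl succinate and 2.40% under vehicle, where counting alone would give 1.64% under dimethyl succinate and 1.60% under vehicle.

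Lif had a log2 fold change of -0.21 ± 0.053 (SE), its 95% interval running from -0.33 to -0.099, and a level 0.863 times that of vehicle. Without vehicle replicate 4 it was -0.20, with an interval of -0.30 to -0.11. The authors' deposited table gives -0.22. Groups that did not overlap, lower under dimethyl succinate, were found for 2.32% of all genes tested, and nothing is read from the place of Lif among them because the gene was chosen with this contrast known. In bulk RNA, fewer cells making a transcript and less of it per cell cannot be told apart.

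Lif lies on the plus strand of chromosome 11 at chr11:4257557-4272514 (GRCm38), with 3 annotated transcripts and no exon base shared with another gene. The counts are per gene, so its transcripts are not told apart. The 250 bases before its RefSeq start (RefSeq, GRCm38.p6, chr11:4257318-4257567, plus strand) are shown because Lif was the member whose groups did not overlap, and those of Il6st (chr13:112463820-112464069, plus strand) because it encodes the chain shared by the receptors. Capitals mark the AP-1 motif TGANTCA and the NFAT core GGAAA or its reverse complement, motifs of factors that act downstream of the T cell receptor.
Lif: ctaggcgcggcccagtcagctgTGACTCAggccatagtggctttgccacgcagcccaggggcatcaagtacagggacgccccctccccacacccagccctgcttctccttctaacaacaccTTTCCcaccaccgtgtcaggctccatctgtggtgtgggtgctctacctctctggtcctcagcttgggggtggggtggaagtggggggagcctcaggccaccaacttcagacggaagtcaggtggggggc
Il6st: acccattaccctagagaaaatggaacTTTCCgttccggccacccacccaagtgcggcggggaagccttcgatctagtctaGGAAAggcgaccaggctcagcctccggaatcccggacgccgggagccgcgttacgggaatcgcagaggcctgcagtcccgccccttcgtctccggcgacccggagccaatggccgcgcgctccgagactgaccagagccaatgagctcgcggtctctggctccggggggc

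The AP-1 motif of the Lif window begins 228 bases before the start, and 6.75% of the 32851 promoter windows of this length hold that motif on either strand. The NFAT core is common, in 55.6% of windows, and stands once in the Lif window and at 2 places in that of Il6st. The STAT motif TTCNNNGAA, held by 7.02% of windows, and the cyclic AMP response motif TGACGTCA, held by 1.55%, matched nowhere in either window. The windows of Il6ra and Lifr held none of these 4 motifs. A match of letters describes the window and no binding was measured.

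Osm encodes oncostatin M, a cytokine known in mouse blood cells as a target of STAT5. It had 11.2, 10.7, 10.4 and 9.59 FPKM in dimethyl succinate replicates 1 to 4, against 9.69, 11.6, 11.3 and 8.36 FPKM in vehicle replicates 1 to 4. The groups overlapped, and the lowest value was that of vehicle replicate 4. Its counts were lower than those of Lif, 344 to 408 per dimethyl succinate library and 273 to 416 per vehicle library. Its log2 fold change of 0.038 ± 0.110 (SE) had 95% bounds of -0.20 and 0.28, and it was -0.050 without vehicle replicate 4, so the data give it no direction.

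Osm and Lif are neighbours on the same strand. Osm lies at chr11:4236420-4241026 (GRCm38), its end 16530 bases before the start of Lif, with 0 annotated genes between them. The Pearson correlation of their log2 CPM was -0.34 over all 8 libraries and 0.048 over 7 without vehicle replicate 4. Over deviations from the group means of the 8 libraries it was -0.83. These are descriptions of libraries that share their scaling to depth. The ratio of Lif to Osm in FPKM was 5.11 ± 0.380 under dimethyl succinate and 6.19 ± 1.11 under vehicle (SD, n = 4 each). Its ranges overlapped, at 4.77 to 5.66 under dimethyl succinate and 5.22 to 7.60 under vehicle.

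Lifr encodes the chain that binds LIF and pairs it with gp130. It had 0, 1, 4 and 1 counts in dimethyl succinate replicates 1 to 4, against 3, 0, 0 and 2 counts in vehicle replicates 1 to 4. The sums were 6 counts under dimethyl succinate and 5 under vehicle, and 3 of the 8 libraries held none. A count of 0 allows up to 3 counts, which for this gene of 10776 listed bases corresponds to 0.0167 to 0.0208 FPKM, counting error only. The gene did not pass the low-count filter, no fold is given, and a difference was not detectable at this depth. Lifr lies at chr15:7090614-7197489 (GRCm38), plus strand.

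Il6st encodes gp130, the chain that carries the signal for the whole family. It had 9.91, 9.66, 10.3 and 9.59 FPKM in dimethyl succinate replicates 1 to 4, against 9.89, 9.14, 9.28 and 7.15 FPKM in vehicle replicates 1 to 4. Vehicle replicate 1 lay within the range of the dimethyl succinate libraries and the other vehicle libraries below it. Its log2 fold change of 0.16 ± 0.089 (SE) had 95% bounds of -0.033 and 0.35. Without vehicle replicate 4 it was 0.068, with an interval of -0.040 to 0.18. That library was 0.41 lower in log2 CPM than the mean of the other 3 vehicle libraries, and 30.8% of the genes tested were displaced further there. Il6st lies at chr13:112464070-112510086 (GRCm38), with 10 annotated transcripts.

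Il6ra encodes the chain that binds interleukin-6 and has itself little signalling function, and its extracellular part can be shed from the cell. It had 8.04, 8.40, 8.28 and 8.02 FPKM in dimethyl succinate replicates 1 to 4, against 9.03, 8.59, 8.07 and 7.61 FPKM in vehicle replicates 1 to 4. The dimethyl succinate values lay inside the vehicle range. Its log2 fold change of -0.019 ± 0.068 (SE) had 95% bounds of -0.17 and 0.13, and it was 0.025 without vehicle replicate 1 and -0.061 without vehicle replicate 4. Il6ra lies on the minus strand at chr3:89864059-89913196 (GRCm38), and 2.80% of its exon bases are shared with the antisense gene Gm42809. Use of strand in counting was not stated, so reads from that stretch cannot be assigned.

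The level of Il6st relative to Il6ra in FPKM was 1.21 ± 0.043 under dimethyl succinate and 1.06 ± 0.089 under vehicle (SD, n = 4 each). Its highest vehicle value and its lowest dimethyl succinate value both rounded to 1.15. Vehicle replicate 4 had the lowest ratio, 0.940, and was the one library with more Il6ra than Il6st.

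**Figure D2:**
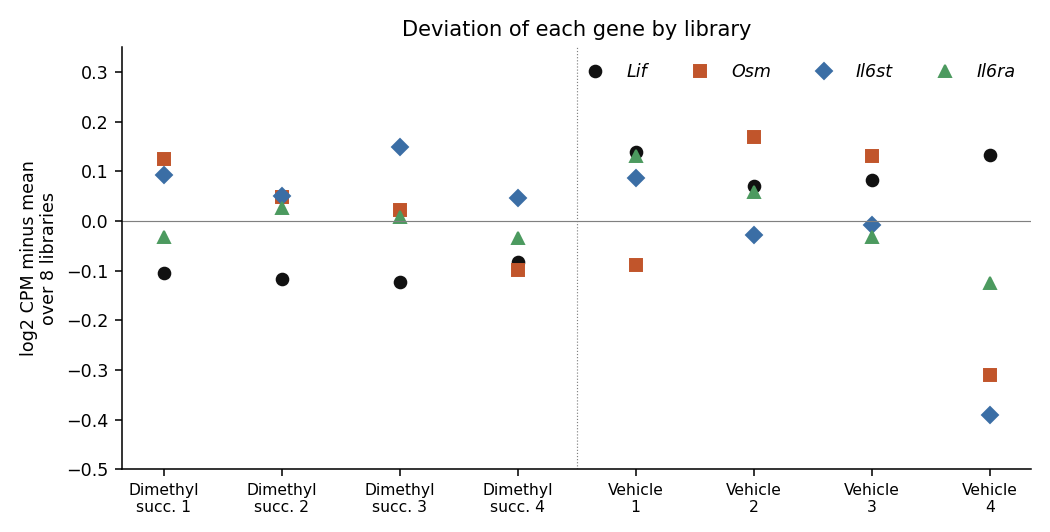
Each point gives, for one gene and library, log2 CPM minus the mean of that gene over the 8 libraries; dimethyl succinate libraries are left of the dotted line and vehicle libraries right of it. Lif lies below 0 in every dimethyl succinate library and above 0 in every vehicle library, while Osm, Il6st and Il6ra are lowest in vehicle replicate 4, where Lif lies above 0.

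Vehicle replicate 4 thus bore unequally on the members. Its log2 CPM differed from the mean of the other 3 vehicle libraries by 0.036 for Lif, -0.38 for Osm, -0.41 for Il6st and -0.18 for Il6ra. Of the 13981 genes tested, 92.2% were displaced further than Lif. The coefficient of variation of the CPM of Osm was 6.38% under dimethyl succinate and 14.9% under vehicle, or 9.36% under vehicle without that library. For Il6st it was 3.35% under dimethyl succinate and 13.6% under vehicle, or 4.29% without that library. For Il6ra it was 2.10% under dimethyl succinate and 7.66% under vehicle, or 5.67% without that library.

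Across all genes, edgeR's quasi-likelihood test called 0 of 13981 at an adjusted p of 0.05, a share of 0%, and 0 of the 4 members tested. At an unadjusted p below 0.05 it had 805 genes, 5.76% of those tested. DESeq2 called 4 genes and limma-voom 0, none of them members. Without vehicle replicate 4 edgeR called 28 of 14232 genes, a share of 0.197%, and again 0 of the 4 members. Nothing is read from these counts of members, which were selected on this contrast.

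**Figure D3:**
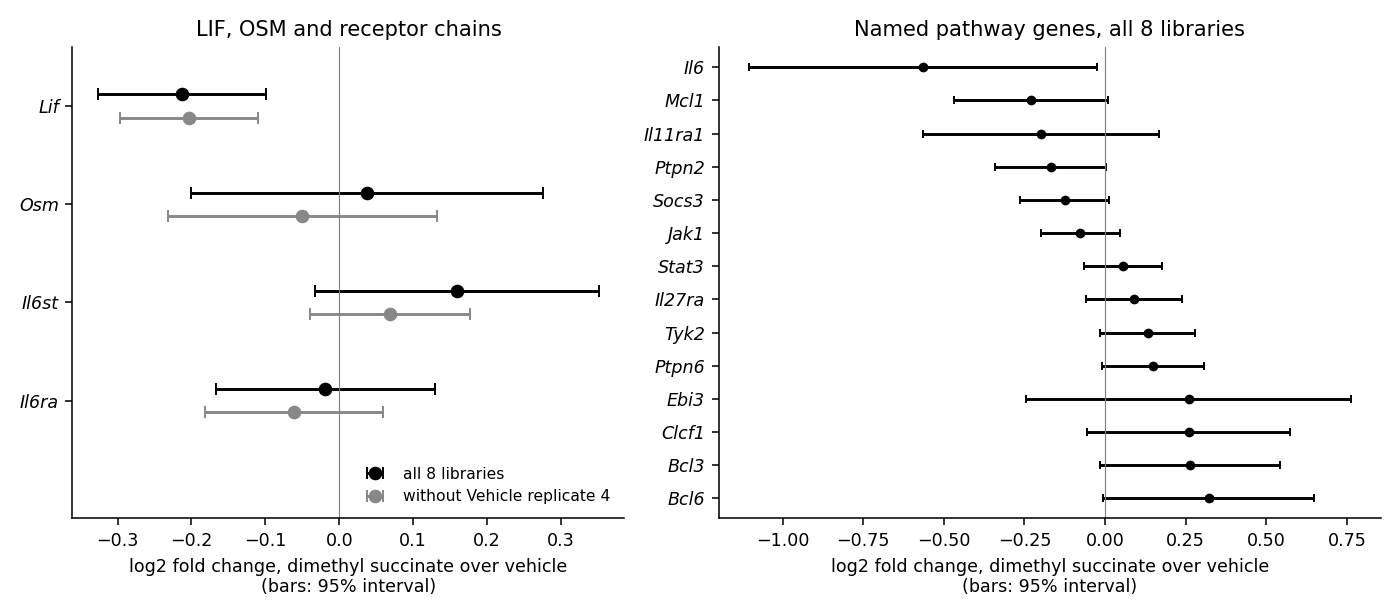
Points are log2 fold changes, dimethyl succinate over vehicle, with 95% intervals, for the 4 members tested (left, with all 8 libraries and without vehicle replicate 4) and for the named pathway genes tested (right, all 8 libraries). Lif is at -0.21 with all libraries and -0.20 without vehicle replicate 4, while Il6st is at 0.16 and 0.068.

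The other ligands of the family were mostly scarce. Of 9 listed, 3 passed the low-count filter, Clcf1, Ebi3 and Il6, and 0 were called in either direction. Clcf1, a cytokine that signals through the ciliary neurotrophic factor receptor, averaged 8.82 ± 1.54 FPKM under dimethyl succinate and 7.40 ± 1.33 FPKM under vehicle, a log2 fold change of 0.26, or 0.15 without vehicle replicate 4. Ebi3, a subunit of interleukin-27 and interleukin-35, averaged 8.66 ± 1.40 FPKM under dimethyl succinate and 7.25 ± 2.43 FPKM under vehicle, a log2 fold change of 0.26, or 0.037 without vehicle replicate 4. Il6 averaged 0.548 ± 0.0984 FPKM under dimethyl succinate and 0.813 ± 0.166 FPKM under vehicle (SD, n = 4 each for these genes), a log2 fold change of -0.57 ± 0.249 (SE), from 200 counts in all 8 libraries together. Lif was thus the most abundant ligand of the family measured here, and the interleukin-6 transcript lay below 1 FPKM in every library.

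Among the other receptor chains, 2 of 5 passed the filter, Il27ra and Il11ra1, and 0 were called. Il27ra, the partner of gp130 in the interleukin-27 receptor, was the most abundant chain, at 30.9 ± 1.56 FPKM under dimethyl succinate and 29.2 ± 2.09 FPKM under vehicle (SD, n = 4 each). Il11ra1, the interleukin-11 binding chain, averaged 1.51 ± 0.140 FPKM under dimethyl succinate and 1.74 ± 0.437 FPKM under vehicle, a log2 fold change of -0.20, or -0.023 without vehicle replicate 4. Osmr, the partner chain for mouse oncostatin M, averaged 0.0422 ± 0.0178 FPKM under dimethyl succinate and 0.0454 ± 0.0154 FPKM under vehicle, with 65 counts in all libraries. The cells thus held transcripts of Lif and Osm and of the shared chain, with the partner chains of both ligands at or near 0.

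**Figure D4:**
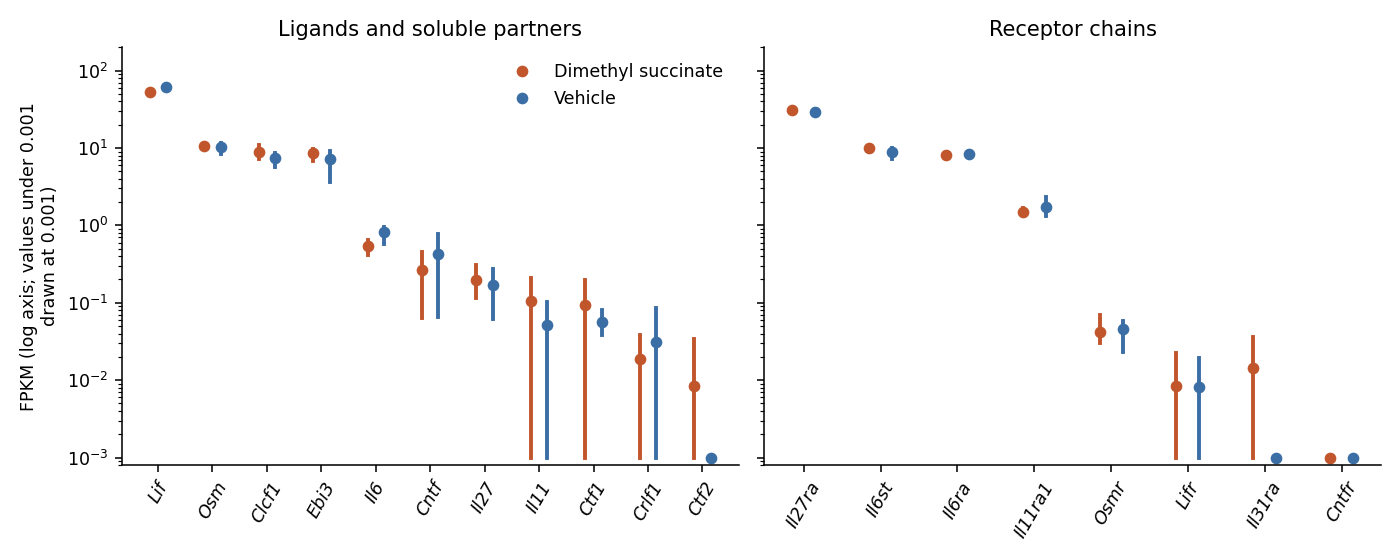
Points are mean FPKM and bars the lowest to highest of 4 libraries, on a log axis, for ligands and soluble partners (left) and receptor chains (right) of the gp130 family, each ordered by its mean over all libraries. Lif leads the ligands and Il27ra the receptor chains, while Lifr and Osmr lie below 0.1 FPKM in both groups.

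Downstream of the receptors, 10 of 12 listed kinases, STATs and adaptors were tested and 0 were called. Jak1, the kinase bound to gp130, averaged 52.8 ± 1.36 FPKM under dimethyl succinate and 55.8 ± 1.88 FPKM under vehicle. Stat3, the main factor that gp130 activates, averaged 52.5 ± 0.693 FPKM under dimethyl succinate and 50.7 ± 1.23 FPKM under vehicle (SD, n = 4 each), a log2 fold change of 0.056 with a 95% interval of -0.066 to 0.18. Tyk2, another Janus kinase, had a log2 fold change of 0.13 ± 0.068 (SE).

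All 9 genes of feedback and receptor shedding were tested and 0 were called. Socs3, which encodes the inhibitor that binds gp130 and is itself induced by STAT3, averaged 36.8 ± 2.36 FPKM under dimethyl succinate and 40.2 ± 1.68 FPKM under vehicle (SD, n = 4 each), a log2 fold change of -0.12 with a 95% interval of -0.26 to 0.013. Ptpn2, a phosphatase of Janus kinases and STATs, had a log2 fold change of -0.17 ± 0.080 (SE). Ptpn6, which encodes the phosphatase SHP-1, had 0.15 ± 0.073, or 0.081 without vehicle replicate 4.

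Of 19 listed target genes of STAT3, Socs3 among them, 18 were tested and 0 were called. Bcl6, a transcriptional repressor of follicular helper cells, had a log2 fold change of 0.32 ± 0.151 (SE). Bcl3, an atypical inhibitor of NF-kB, had 0.26 ± 0.128, or 0.12 without vehicle replicate 4. Mcl1, an inhibitor of apoptosis, had -0.23 ± 0.110, or -0.079 without vehicle replicate 4. The median log2 fold change of this list was 0.013, against -0.0011 over all genes tested, and its sign turned without vehicle replicate 4, to -0.033 against -0.00021.

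Taking the 5 lists as 1, 41 of 53 genes were tested. Of these 22 lay above 0, with a median log2 fold change of 0.031, or -0.019 without vehicle replicate 4. At an unadjusted p below 0.05 there was 1 gene, Il6, which is 2.44% of those tested, against 5.76% of all genes. Without vehicle replicate 4 there were 5 of 43, or 11.6%, against 8.54% of all genes, so the share lay below or above that of all genes by whether 1 library was kept. In CPM the groups did not overlap for 1 gene that was higher under dimethyl succinate, Bcl3, against 2.5% of all genes, and for 3 that were lower, Mcl1 and Socs1 among them, against 2.32%. Socs1, an inhibitor of Janus kinases, is not within the rule for named genes and was chosen with its value in view.

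The genes most like each member across libraries were sought among the others with a mean of at least 10 CPM, 8914 for each member. Likeness was the lower of the Pearson correlations of log2 CPM over all 8 libraries and over 7 without vehicle replicate 4. The correlation over all 8 libraries is given for each. For Lif the genes were Acot2, an acyl-CoA thioesterase (0.955), Trib2, a pseudokinase (0.953), and Atf1, a transcription factor of the CREB family (0.948), and over deviations from the group means the correlations were 0.69 for Acot2, 0.38 for Trib2 and 0.57 for Atf1. The choice thus took in the difference of Lif between the groups, and their log2 fold changes of -0.30, -0.28 and -0.25 share its direction by that choice. For Osm they were Mapk3, which encodes the kinase ERK1 (0.938), Mrpl23, a mitochondrial ribosomal protein (0.897), and Gtf3c5, a general transcription factor subunit (0.941). For Il6st they included Dst, a cytoskeletal linker (0.945), and Eng, a co-receptor of the TGF-beta family (0.980). For Il6ra they were Foxj3, a forkhead factor (0.979), Bmp2k, a kinase (0.960), and Cdc14a, a phosphatase (0.955). With 8 libraries and so many candidates, correlations of this size describe these libraries and no more.

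Markers of other cells were present at low to moderate levels. Monocytes, macrophages and neutrophils make oncostatin M and carry the interleukin-6 receptor. Their 10 markers averaged under 1 CPM each over all libraries. Their sum was 2.68 to 4.24 CPM under dimethyl succinate and 2.10 to 2.62 CPM under vehicle, ranges that did not overlap, and S100a9 had no count. Most of the markers shared this direction, but not all. Lyz2, Itgam, Cd14, Adgre1, Ly6g and Csf3r averaged higher under dimethyl succinate, and Csf1r, S100a8 and Mpo lower. Lyz2 averaged 1.01 CPM under dimethyl succinate and 0.592 CPM under vehicle. Itgam averaged 0.349 CPM under dimethyl succinate and 0.0682 CPM under vehicle, but Csf1r 0.217 CPM under dimethyl succinate and 0.323 CPM under vehicle. These rest on 97 counts for Lyz2, 26 for Itgam and 33 for Csf1r over all libraries. The part of the difference in the sum in the levels of Osm and Il6ra was not tested. For comparison, Osm averaged 24.0 CPM under dimethyl succinate and 23.4 CPM under vehicle, and Il6ra 71.3 CPM under dimethyl succinate and 72.2 CPM under vehicle. Of 7 markers of stroma and endothelium, 6 averaged under 1 CPM, and Col3a1 and Cdh5 had no count; Pecam1, which T cells also express, made up most of their sum of 34.8 to 39.1 CPM under dimethyl succinate and 28.7 to 40.3 CPM under vehicle. The sum of 5 B cell markers was 3.61 to 5.01 CPM under dimethyl succinate and 3.60 to 4.26 CPM under vehicle. The 5 markers of mast cells and basophils each passed the low-count filter. They summed to 17.3 to 21.9 CPM under dimethyl succinate and 15.3 to 20.5 CPM under vehicle. Osm itself ran from 22.0 to 25.7 CPM under dimethyl succinate and from 19.0 to 26.5 CPM under vehicle. The 5 dendritic cell markers summed to 10.6 to 11.2 CPM under dimethyl succinate and 8.37 to 12.5 CPM under vehicle, and Siglech had no count. Most of that sum was Zbtb46, at 7.97 CPM under dimethyl succinate and 6.91 CPM under vehicle, and 3 of the 5 averaged under 1 CPM. The 5 natural killer cell markers summed to 8.63 to 13.05 CPM under dimethyl succinate and 10.7 to 14.1 CPM under vehicle. Most of it was Eomes, at 9.96 CPM under dimethyl succinate and 10.1 CPM under vehicle, and the other 4 averaged under 1 CPM each. The 2 markers of CD8 T cells summed to 5.85 to 7.54 CPM under dimethyl succinate and 5.50 to 5.98 CPM under vehicle. The part of these cells in the members' levels was not tested.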

How the data were processed

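The authors deposited 1 table with the raw count of each gene in each library and FPKM values, per the file headers, and with gene lengths in bases. The same deposited table holds the authors' group means, a normalised signal with no unit in the header, and their log2 fold changes, p-values and adjusted p-values. HISAT2 2.0.5 is named in the submitters' processing notes; counter, annotation, build and strand use are not given in the sources used here. Start and end of 98.3% of the 54495 genes matched in GENCODE M21, and of all 5 members, equalled that GRCm38 annotation. Each library's group came from its title.

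From the counts, genes passing filterByExpr (13981) were tested with edgeR 4.0.16 in R 4.3.3, with TMM scaling, the quasi-likelihood F test, no covariate, all 8 libraries, and Benjamini-Hochberg adjustment over all genes, two-sided. Standard errors come from the F statistic. CPM uses TMM-scaled library sizes, and log2 CPM a prior count of 2. Alternatives used DESeq2 1.42.0 and limma 3.58.1. The fit was tested on simulated data with no outlying library. It recovered 78% of 100 genes changed 2-fold and 66% of 100 changed 1.5-fold, and called 10 of 13564 unchanged genes. Changes as small as that of Lif were not simulated.

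The members and all lists were chosen with earlier results of these data known. Named pathway genes are Jak1, Stat3, Socs3, Osmr, Il6 and up to 3 genes per list, those lowest in unadjusted p; likewise 3 genes most like each member. Some genes within this rule are left out of the text. Replicates differed by more than counting noise (lowest chi-square per gene 2.11, where 1 comes from counting alone). Nothing states separate animals or cultures, so p-values and intervals measure only the spread between these libraries, which may be technical. Promoter sequences come from RefSeq, matched by symbol for 4 of the 5 members.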

Additional observations from a re-analysis of the deposited data

How the results depend on the processing

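The count of 0 genes called by edgeR's quasi-likelihood test became 6 with no low-count filter, 4 with DESeq2 and 1 with the replicate block, and ran from 0 to 28 with each library left out in turn, the 28 being without vehicle replicate 4. Of the pathway genes 0 were called in every one of these fits, and of the members tested likewise 0. At an unadjusted p below 0.05 the pathway genes numbered 1 of 41, but 6 of 52 with no low-count filter, 5 of 41 with the replicate block and 0 to 5 with each library left out, 5 being without vehicle replicate 3 or 4. This count was added after seeing the data. Whether the replicate numbers of the titles pair the samples is not settled here. Same-numbered libraries had correlations of -0.014 to 0.13 in their deviations from the group means, and 1 of 4 exceeded 0.1. Libraries with different numbers had -0.12 to 0.086. Vehicle replicate 4, which stood apart, enters these deviations, and a low correlation does not exclude pairing. The log2 fold change of Lif ran from -0.23 to -0.20 with each library left out, and was -0.21 with the replicate block. That of Il6st ran from 0.068 to 0.22 with each library left out, and was 0.17 with the replicate block. Those of Osm (-0.050 to 0.10) and Il6ra (-0.061 to 0.025) changed sign between libraries left out. Depth limits Lifr, with 11 counts in all, most.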
